A study of Mus musculus with 5 samples.

Results

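Cyb5r1, Snd1, Maoa and Tfcp2l1 are 4 genes whose mean level in Immt-deleted hearts was at least 4 times that of control hearts, with small standard deviations (SD). They were chosen on these values, so their difference between the groups is described here and not tested. The deposited table holds 15116 genes, of which 12617 are protein-coding, and 111 of the 15116 (0.734%) reached 4 times the control mean. Hearts of Immtfl/fl-Myh6-MCM mice (knockout, 2 libraries) were compared with hearts of Immt+/+-Myh6-Cre mice (control, 3 libraries). In the knockout both Immt alleles carry loxP sites, and the Myh6 promoter drives MerCreMer, a recombinase that enters the nucleus of cardiomyocytes once tamoxifen is given. The control has unaltered Immt alleles and carries constitutive Cre under the same promoter, so that Immt deletion and the kind of recombinase cannot be told apart. Tamoxifen was injected in all 5 cases per the labels, at 6 weeks of age by the study design. The knockout hearts were taken 10 weeks later, and the control hearts are described only as age-matched. The study's methods name the single mouse as its general unit of experiment and the labels title each library separately, without an animal for each. The p-values below set a difference against the spread between these libraries, moderated toward a trend over all genes.

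The 4 genes encode a membrane reductase, an RNA-binding nuclease, an amine oxidase and a transcription factor. CYB5R1 belongs to the NADH-cytochrome b5 reductases, membrane flavoenzymes that pass electrons from NADH to cytochrome b5 and so feed fatty acid desaturation and sterol synthesis. In human cells CYB5R1, together with the cytochrome P450 reductase POR, has been described as a source of the hydrogen peroxide behind membrane lipid peroxidation. SND1 (Tudor-SN) joins staphylococcal nuclease-like domains to a Tudor domain. It serves as a transcriptional coactivator, as a subunit of the RNA-induced silencing complex (RISC) and as a component of stress granules. MAOA is a flavoenzyme of the outer mitochondrial membrane that oxidizes serotonin and noradrenaline and releases hydrogen peroxide with each turnover, for which it is known as a source of oxidants in the heart. TFCP2L1 is a transcription factor of the grainyhead and CP2 family, best known for the naive state of mouse embryonic stem cells and for the collecting duct of the kidney.

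Cyb5r1 and Tfcp2l1 lie on chromosome 1, Snd1 on chromosome 6 and Maoa on chromosome X, each on the plus strand in the GENCODE M21 annotation. The 250 bases before each RefSeq transcription start (GRCm38.p6 build) are shown because the 4 genes share the direction of their change, which their choice fixed. Capitals mark matches to the motifs named below. They span chr1:134405531-134405780 for Cyb5r1, chr6:28480098-28480347 for Snd1, chrX:16619448-16619697 for Maoa and chr1:118627695-118627944 for Tfcp2l1, all on the plus strand.
Cyb5r1: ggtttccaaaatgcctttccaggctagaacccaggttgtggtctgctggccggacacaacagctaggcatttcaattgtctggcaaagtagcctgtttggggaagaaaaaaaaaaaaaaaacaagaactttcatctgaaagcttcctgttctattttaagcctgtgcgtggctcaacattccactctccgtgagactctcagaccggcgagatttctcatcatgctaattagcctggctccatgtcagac
Snd1: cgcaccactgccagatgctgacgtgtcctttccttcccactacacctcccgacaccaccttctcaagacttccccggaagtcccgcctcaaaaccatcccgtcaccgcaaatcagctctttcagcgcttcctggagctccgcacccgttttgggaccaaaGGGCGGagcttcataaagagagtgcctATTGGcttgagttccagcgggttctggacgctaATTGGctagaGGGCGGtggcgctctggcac
Maoa: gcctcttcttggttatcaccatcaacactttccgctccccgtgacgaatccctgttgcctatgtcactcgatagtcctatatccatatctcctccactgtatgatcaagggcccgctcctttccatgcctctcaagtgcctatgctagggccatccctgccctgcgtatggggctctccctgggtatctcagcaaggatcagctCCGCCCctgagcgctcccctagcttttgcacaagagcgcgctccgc
Tfcp2l1: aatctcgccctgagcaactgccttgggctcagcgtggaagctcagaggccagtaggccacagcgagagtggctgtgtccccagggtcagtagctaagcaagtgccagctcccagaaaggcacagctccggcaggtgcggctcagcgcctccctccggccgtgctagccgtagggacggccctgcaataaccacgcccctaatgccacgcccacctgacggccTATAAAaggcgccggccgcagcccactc

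The windows of Snd1, Maoa and Tfcp2l1 lay above the median of all windows in GC content and CpG count, and that of Cyb5r1 below. GC content was 46% in Cyb5r1, 58.4% in Snd1, 56.8% in Maoa and 65.2% in Tfcp2l1, beside a median of 52.4% over 32851 promoter windows of the same length. Cyb5r1 had 5 CpG dinucleotides, Snd1 15, Maoa 11 and Tfcp2l1 16, beside a median of 6. None of the 4 windows held TGATGNAA, an amino acid response type sequence of which 3.45% of all windows had a match on either strand. TGACNNNGC, of the antioxidant response type, and the E-box CACGTG were likewise not found in these 4 windows and occurred in 10.2% and 6.02% of all. The GC box GGGCGG stood in Snd1, 90 and 20 bases before the start, and, as its reverse complement, in Maoa at 46 bases before the start, against 32.7% of all windows. CCAAT was read in reverse in Snd1 at 63 and 30 bases before the start (33.8% of all windows), and TATAAA in Tfcp2l1 at 28 bases before the start (12.4%). Positions are those of the first base of a match on the plus strand, no printed match overlaps a different one, and these matches describe letters and not binding sites.

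Levels were measured by oligo-dT primed 3′ tag sequencing of whole-heart RNA and are given as the authors' normalized CPM, that is, reads scaled to a common normalized library size. Because the tags are not scaled by transcript length, levels are compared between hearts and not between genes. In bulk hearts a change in the number of cells of a type and a change in RNA per cell cannot be told apart. The table gives a mean and an SD per group. The value of 1 read in each library could be worked back from genes read in 1 library only, which gave effective sizes of 15.2 and 14.1 M reads for knockout libraries a and b and 13.6, 13.6 and 12.1 M reads for control libraries c, d and e. With these sizes the mean and SD of each of the 4 genes had exactly 1 solution in whole reads in the control and 1 order of whole or 0.5-fractional reads in the knockout. The letters a to e therefore stand for libraries, but they cannot be matched to the replicate numbers in the labels.

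**Figure D1:**
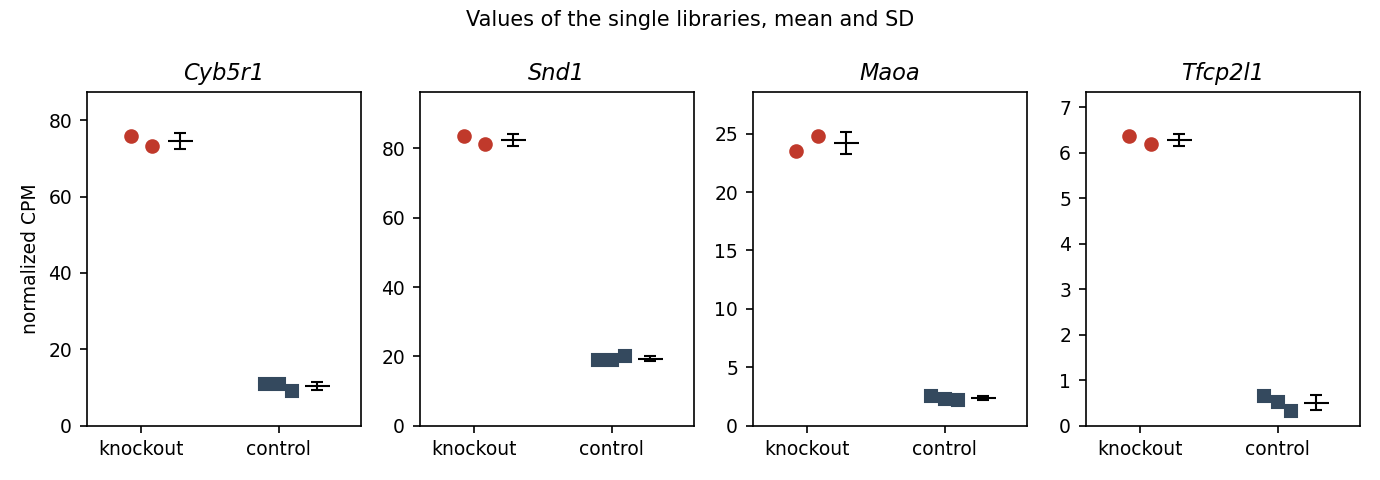
Normalized CPM (linear vertical axis from 0) of Cyb5r1, Snd1, Maoa and Tfcp2l1 in each library, with 2 knockout libraries as circles, 3 control libraries as squares, and the mean with its SD as a bar to the right of each group. In each panel both knockout libraries lie above all 3 control libraries, by 4.01 times or more from the lowest knockout to the highest control value. This follows largely from the choice of the genes by ratio and small SDs.

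Cyb5r1 (ENSMUSG00000026456) was read 1155 and 1029 times in knockout libraries a and b, which is 76.0 and 73.1 CPM, against 150, 148 and 111 reads or 11, 10.9 and 9.16 CPM in control libraries c, d and e. The knockout values lay within 3.81% of their mean of each other, and the control values spread over 17.8% of theirs with library e the lowest. The deposited means were 74.6 ± 2.01 CPM in the knockout (SD, n = 2) and 10.3 ± 1.02 CPM in the control (SD, n = 3), a ratio of 7.21. The pooled reads, 2184 in the knockout and 409 in the control, gave a ratio of 7.18 after scaling to library size, with an exact 95% interval of 6.46 to 8.003 that covers counting error only. This interval and those of the other chosen genes make no allowance for their choice by ratio, and are no test of a difference. Ordered by level, this reductase ranked 1161 of 15116 genes in the knockout and 6362 in the control.

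Snd1 (ENSMUSG00000001424), the RISC and stress granule nuclease, had the lowest ratio of the 4 and the tightest values. It was read 1273 and 1142 times in knockout libraries a and b (83.7 and 81.2 CPM), against 258, 259 and 245 times in control libraries c, d and e (18.9, 19.0 and 20.2 CPM). Here control library e was the highest of its group, in contrast to the other 3 genes. The deposited means were 82.5 ± 1.82 CPM in the knockout and 19.4 ± 0.726 CPM in the control, a ratio of 4.25. From 2415 pooled knockout reads and 762 pooled control reads the ratio was 4.26 (exact 95% counting interval 3.93 to 4.63), so that counting error alone reaches below the threshold of 4.

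Maoa (ENSMUSG00000025037) was read 358 and 349.5 times in knockout libraries a and b, against 35, 31 and 27 times in control libraries c, d and e. As CPM this was 23.5 and 24.8 in the knockout against 2.57, 2.28 and 2.23 in the control. Knockout library b was the higher for this oxidase, whereas library a was the higher for the other 3 genes. The deposited means were 24.2 ± 0.913 CPM in the knockout and 2.36 ± 0.183 CPM in the control, a ratio of 10.3. Pooled reads numbered 707.5 in the knockout and 93 in the control and gave a ratio of 10.2 (exact 95% counting interval 8.23 to 12.8).

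Tfcp2l1 (ENSMUSG00000026380) had the highest ratio and the least certain one. It was read 97 and 87 times in knockout libraries a and b (6.38 and 6.18 CPM), against 9, 7 and 4 times in control libraries c, d and e (0.66, 0.514 and 0.33 CPM). The knockout values were as close to each other as those of the other genes, at 3.14% of their mean, while the control values spread over 65.8% of theirs. Deposited means of 6.28 ± 0.14 CPM in the knockout and 0.501 ± 0.165 CPM in the control gave a ratio of 12.5. With 184 pooled knockout reads against 20 pooled control reads the ratio was 12.4, and its exact 95% counting interval ran from 7.78 to 20.7. By level this regulator ranked 8175 of 15116 in the knockout and 14954 in the control, close to the bottom of the table. All 163 genes at or under its control mean had a knockout mean of at least 0.555 CPM, and the filter of the table is not stated, so genes that low in both groups may be missing from it. The control mean of Tfcp2l1 lies under 0.508 CPM, the lowest value that the higher of both group means takes in the table. Tfcp2l1 was therefore listed through its knockout level, which fixed its direction, and its ratio is no support for a difference.

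The groups did not overlap for any of the 4 genes, which follows largely from their choice by ratio and small SDs. The share of all genes without overlap was not counted, so this is description only. The ratio of the lowest knockout to the highest control library was 6.65 for Cyb5r1, 4.01 for Snd1, 9.18 for Maoa and 9.37 for Tfcp2l1. The coefficient of variation (CV, SD over mean) in the knockout was 2.7% for Cyb5r1, 2.21% for Snd1, 3.77% for Maoa and 2.22% for Tfcp2l1, and small SDs were part of how these genes were chosen. For comparison, the median knockout CV was 10.1% over the 41 genes with at least 4 times the control mean and an average level of at least 5 CPM, and 5.25% over all 9067 genes at that level. Control CVs were 9.9% for Cyb5r1, 3.75% for Snd1, 7.78% for Maoa and 33.0% for Tfcp2l1, beside a median of 17.5% over the 41 genes and 8.24% over the 9067. By ratio of means the 4 genes were not at the top of the table. Tfcp2l1 ranked 39, Maoa 47, Cyb5r1 61 and Snd1 103 among the 15116 genes. On either side of the threshold, among protein-coding genes at 5 CPM or more, Zfp385b stood just inside at 22.2 ± 1.36 CPM in the knockout and 5.26 ± 0.114 CPM in the control (ratio 4.22), and Pter just outside at 12.3 ± 0.96 CPM in the knockout and 3.07 ± 0.493 CPM in the control (ratio 3.99).

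**Figure D2:**
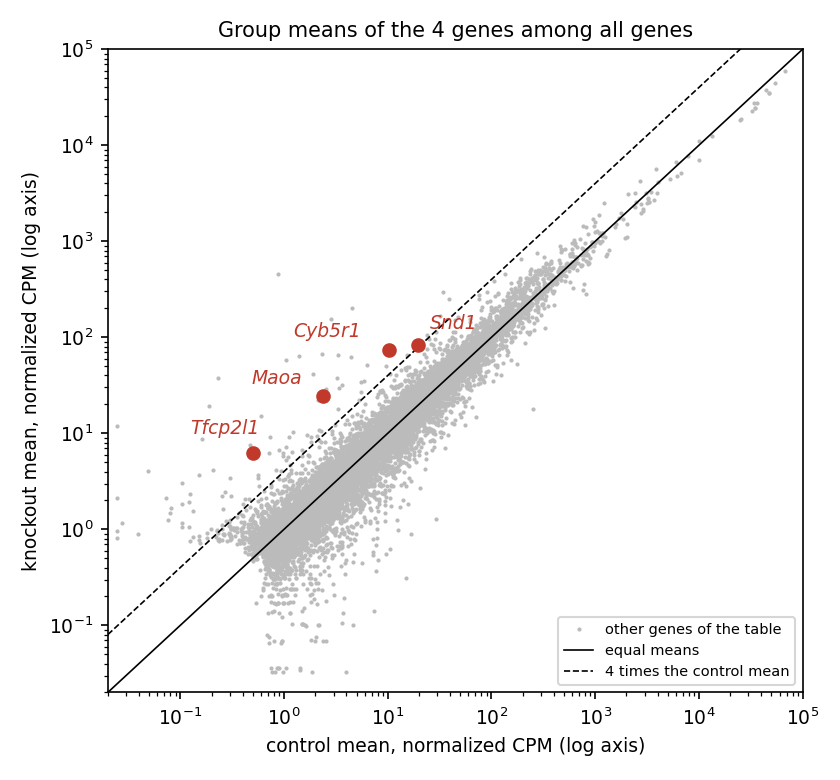
Knockout mean (vertical, log axis) against control mean (horizontal, log axis) in normalized CPM for each gene with both means above 0, with the 4 genes in red, a solid line at equal means and a dashed line at 4 times the control mean. Snd1 sits just above the dashed line with a ratio of 4.25, and Tfcp2l1 farthest above it of the 4 with 12.5, at a control mean of 0.501 CPM where the table thins out.

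For each of the 4 genes the 3 protein-coding genes with the nearest pair of group means were named, by distance on the log2(mean + 0.5 CPM) scale over the 2 groups. Psat1, an enzyme of serine synthesis, was nearest to Maoa at a distance of 0.17, with 22.2 ± 2.12 CPM in the knockout and 2.13 ± 0.0751 CPM in the control. It was followed by Nmrk2, a nicotinamide riboside kinase, with 29.1 CPM in the knockout against 2.53 CPM in the control, and by the transcription factor Myc, with 29.5 CPM in the knockout against 3.39 CPM in the control. Nearest to Tfcp2l1 were Acox2, a peroxisomal acyl-CoA oxidase (5.68 CPM in the knockout against 0.483 CPM in the control), Pycr1, which makes proline (7.60 CPM in the knockout against 0.468 CPM in the control), and Tenm4 (9.21 CPM in the knockout against 0.728 CPM in the control). The control means of Acox2 and Pycr1 lie under 0.508 CPM. Like Tfcp2l1, both were therefore listed through their knockout level, which fixed the direction they share with it. Snd1 lay nearest to the cell-cycle inhibitor Cdkn1a, at 75.7 ± 10.7 CPM in the knockout and 21.1 ± 19.4 CPM in the control. The means of this pair were alike and their spread was not, since the control SD of Snd1 was 0.726 CPM. The next for Snd1 were Nars1, the asparaginyl-tRNA synthetase (75.6 CPM in the knockout against 23.8 CPM in the control), and Gbe1, the glycogen branching enzyme (66.8 CPM in the knockout against 22.2 CPM in the control). Cyb5r1 had no close match. Pmm1, a phosphomannomutase, was 0.56 log2 units away (50.7 CPM in the knockout against 9.67 CPM in the control), followed by the tRNA synthetases Sars1 (64.8 CPM in the knockout against 15.3 CPM in the control) and, farther away, Iars1 (49.3 CPM in the knockout against 15.2 CPM in the control).

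Genes other than the 4 were tested with limma on log2(mean + 0.5 CPM), with adjustment over all 15116 genes and a call at an adjusted p below 0.05. By this test 13.3% of all genes were higher in the knockout and 12.9% lower (26.2% in either direction), with a median log2 difference of −0.025. Scaling to library totals instead of the authors' normalized sizes shifted every ratio of means by 0.129 log2 units and moved the median on the log2(mean + 0.5 CPM) scale to 0.0896, and the share of higher genes among the calls was then 68.4%, against 50.9% on the authors' scale. These totals are sums of the listed group means and not of all sequenced reads. Near-identical entries both count in them, such as mt-Co2 (24484.4 CPM in the knockout, 34784.6 CPM in the control) and the pseudogene Gm28661 (24485.5 CPM in the knockout, 34787.2 CPM in the control). The part of such entries in the shift and in the calls on library totals was not tested.

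Among the other cytochrome b5 reductases only Cyb5r2 and Cyb5r3 were called, and neither call establishes a direction. Cyb5r2, a paralog of Cyb5r1, was a trace transcript in control hearts. It was read 32 and 24 times in knockout libraries a and b (2.105 and 1.71 CPM), against 4, 1 and 0 times in control libraries c, d and e (0.293, 0.0734 and 0 CPM). The ratio of pooled reads was 15.1 with an exact 95% counting interval of 6.09 to 48.2, and the fitted log2 difference was 1.95 (adjusted p = 8.4e-04). Its control mean of 0.122 CPM lies under 0.508 CPM, the lowest value that the higher of both group means takes in the table, so Cyb5r2 was listed through its knockout level and had to differ, and its call is no support for a difference. Cyb5r3, the form of the red cell and of most tissues, fell by 0.32 on the log2 scale (adjusted p = 0.0311), with 41.3 and 46.8 CPM in the knockout and 51.2, 56.4 and 57.8 CPM in the control. That call was lost on library totals (adjusted p = 0.147) and without a mean-variance trend (adjusted p = 0.0994), and with knockout library b alone (adjusted p = 0.311). Cyb5r4 and Cyb5rl were not called, Cyb5r4 with 11.7 CPM in the knockout and 12.9 CPM in the control and Cyb5rl with 4.68 CPM in the knockout and 4.65 CPM in the control.

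Of 17 measured cytochrome b5 reductases, b5 proteins and electron-accepting enzymes other than Cyb5r1, 3 rose with Cyb5r2 included, 3 fell and 11 were not called, with a median log2 difference of −0.08. Among all genes 26.2% were called in either direction. Besides Cyb5r2, the desaturase gene Scd4 rose by 1.43 (adjusted p = 0.00163) and Por, the P450 reductase named above with CYB5R1, rose by 0.56 (adjusted p = 0.0022; 31.0 ± 1.59 CPM in the knockout and 20.9 ± 0.664 CPM in the control), though with knockout library b alone Por missed the threshold (adjusted p = 0.0513). The desaturases Scd2 and Fads1 moved the other way, with log2 differences of −1.93 (adjusted p = 1.19e-04) and −0.95 (adjusted p = 0.00227). Cyb5a, which encodes the endoplasmic reticulum form of cytochrome b5, had 92.7 CPM in the knockout against 80.9 CPM in the control and was not called. Nor was Cyb5b, the form of the outer mitochondrial membrane, with 61.8 CPM in the knockout against 54.7 CPM in the control. Both were called higher on library totals, with an adjusted p of 0.00624 for Cyb5a and 0.0313 for Cyb5b.

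**Figure D3:**
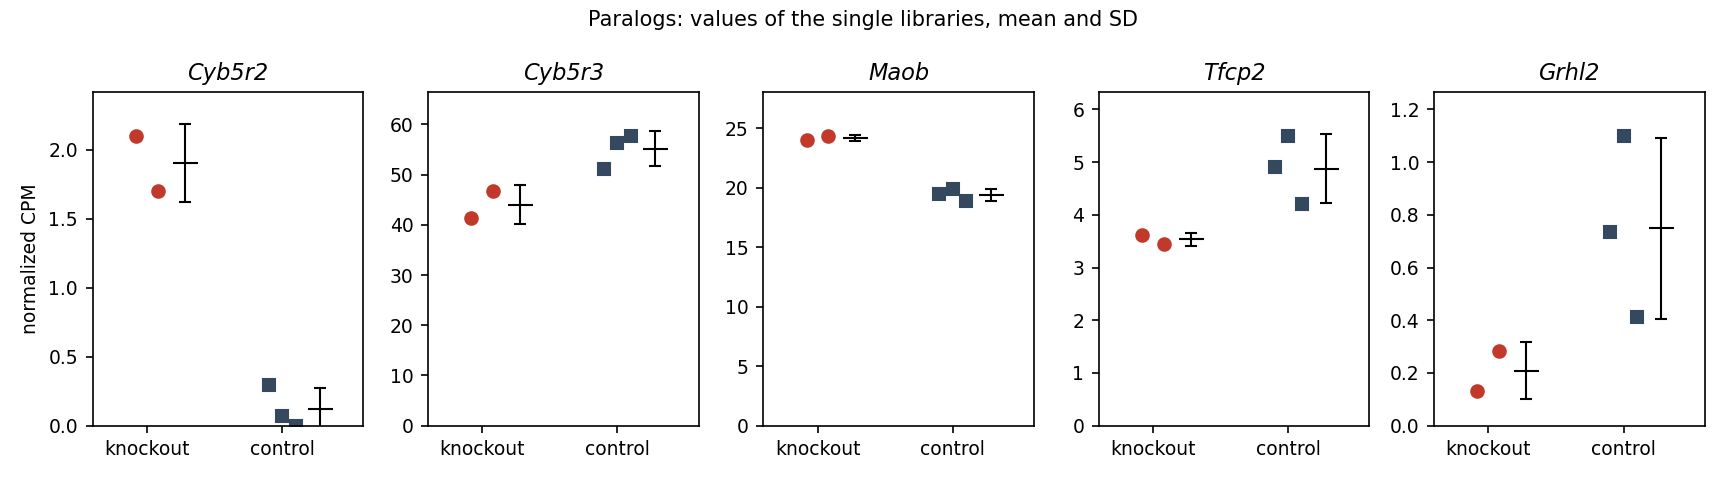
Normalized CPM (linear vertical axis from 0) in each library for 5 paralogs: Cyb5r2 and Cyb5r3 of Cyb5r1, Maob of Maoa, and Tfcp2 and Grhl2 of Tfcp2l1, with 2 knockout libraries as circles, 3 control libraries as squares, and the mean with its SD as a bar to the right of each group. Cyb5r2 is the only panel in which the knockout mean exceeds 4 times the control mean (1.91 CPM in the knockout against 0.122 CPM in the control), and in the Maob panel the knockout libraries read 24.0 and 24.4 CPM above control libraries at 18.9 to 19.9 CPM.

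SND1 works in 3 settings whose other genes were counted against the 26.2% of all genes called in either direction. Among 15 measured genes of small RNA processing and RISC other than Snd1, 3 rose, 0 fell (2 at an unadjusted p below 0.05) and 12 were not called, with a median of −0.08. The risers were Tarbp2, a Dicer partner (log2 difference 0.50, adjusted p = 0.0185), the exporter Xpo5 (0.49, adjusted p = 0.0427) and Fmr1, an RNA-binding protein (0.38, adjusted p = 0.0407). Ago2, the slicing Argonaute, had 23.9 ± 1.35 CPM in the knockout and 29.6 ± 3.29 CPM in the control and was not called. All 3 of these calls were lost when the knockout was represented by its library nearer to the control alone. The log2 difference was then 0.46 for Tarbp2 (library b, adjusted p = 0.191), 0.38 for Fmr1 (library b, adjusted p = 0.256) and 0.33 for Xpo5 (library a, adjusted p = 0.431). In such a fit, here and below, the controls alone supply the spread, and the lone knockout library is assumed to vary like them. The call of Xpo5 was lost also without a trend (adjusted p = 0.0829).

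Of 14 measured stress granule genes other than Snd1, 2 rose, 0 fell (2 at an unadjusted p below 0.05) and 12 were not called, with a median of 0.08. Atxn2l, a relative of ataxin-2, rose by 0.43 (adjusted p = 0.00752) and Tial1, an RNA-binding protein, by 0.26 (adjusted p = 0.0411). With knockout library b alone neither was called, at a log2 difference of 0.40 for Atxn2l (adjusted p = 0.107) and 0.26 for Tial1 (adjusted p = 0.256), and Tial1 was lost without a trend as well (adjusted p = 0.0981). G3bp1, which nucleates the granules, stood at 105.2 ± 1.02 CPM in the knockout and 91.8 ± 1.71 CPM in the control and missed the threshold (adjusted p = 0.055), but was called higher on library totals (adjusted p = 0.00591). Among 11 measured genes for Tudor domain proteins other than Snd1, 0 rose by limma (1 at an unadjusted p below 0.05) and 1 fell, the chromatin reader Phf20 (−0.51, adjusted p = 0.0188). Phf20 was lost with knockout library a alone (adjusted p = 0.178), and the median of the 11 was −0.18.

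Maob, the paralog next to Maoa on the X chromosome and the other mitochondrial monoamine oxidase, also rose. It was read 365 and 343 times in knockout libraries a and b (24.0 and 24.4 CPM), against 265, 271 and 229 times in control libraries c, d and e (19.4, 19.9 and 18.9 CPM). The log2 difference of Maob was 0.31 (adjusted p = 0.0326), against 3.11 for Maoa on the same scale. Without a trend the call was lost (adjusted p = 0.0659). Cask, the nearest measured gene on the other side of Maoa, had 4.02 CPM in the knockout against 4.31 CPM in the control and was not called. The methods describe mice of the X-linked Myh6-Cre line as male and the inducible line as both sexes, which bears on an X-linked gene. Y-linked Ddx3y was read at 34.7 CPM in the knockout and 31.2 CPM in the control and Eif2s3y at 20.4 CPM in the knockout against 23.6 CPM in the control, and Xist had no value in the table. The median log2 difference over 424 X-linked genes was −0.04.

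Of 19 measured genes of monoamine oxidation, conjugation and transport other than Maoa, 2 rose, 4 fell and 13 were not called, with a median of −0.13. Among all genes 26.2% were called in either direction. The genes that fell were the aldehyde dehydrogenases Aldh1b1 (−1.35, adjusted p = 2.55e-04) and Aldh9a1 (−0.80, adjusted p = 0.00859), the aldo-keto reductase Akr1b10 (−0.65, adjusted p = 0.00322) and the histamine methyltransferase Hnmt (−1.08, adjusted p = 0.0146). Aldh2, the mitochondrial dehydrogenase that clears aldehydes made by monoamine oxidases, had 32.1 ± 3.03 CPM in the knockout and 30.1 ± 2.76 CPM in the control and was not called. With knockout library b alone the calls of Aldh9a1 (adjusted p = 0.11) and Akr1b10 (adjusted p = 0.0655) were lost, as was that of Maob with library a alone (log2 difference 0.30, adjusted p = 0.227). Hnmt was lost with its higher knockout library alone (adjusted p = 0.171).

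Of 6 measured genes of catecholamine and serotonin synthesis, Ddc rose and Dbh fell, beside 26.2% of all genes called in either direction. Ddc, the decarboxylase that makes dopamine and serotonin, had 3.62 ± 0.00483 CPM in the knockout and 1.09 ± 0.294 CPM in the control (log2 difference 1.37, adjusted p = 0.00159). Dbh, which makes noradrenaline from dopamine, had 0.372 ± 0.125 CPM in the knockout and 1.62 ± 0.215 CPM in the control (−1.28, adjusted p = 0.00233). Its knockout mean lies under 0.508 CPM, so Dbh was listed through its control level, and its call is no support for a difference. Dbh is also a marker of sympathetic neurons, and the summed level of the 3 neuron markers with values was 8.49 CPM in the knockout and 8.36 CPM in the control, with Th and Elavl4 among those that had no value.

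Of 3 measured relatives of Tfcp2l1, Ubp1 was called. Ubp1, a CP2 factor, fell by 0.44 (adjusted p = 0.0157), with 14.1 and 15.1 CPM in knockout libraries a and b and a control mean of 19.98 ± 1.57 CPM, and missed the threshold on library totals (adjusted p = 0.0541) and with knockout library b alone (adjusted p = 0.168). Tfcp2, the founding member of that branch, was read 55 and 48.5 times in the knockout and 67, 75 and 51 times in the control. The levels were 3.62 and 3.45 CPM in knockout libraries a and b, against 4.91, 5.50 and 4.21 CPM in control libraries c, d and e. It was not called, with a log2 difference of −0.41 and an adjusted p of 0.0899. Grhl2, an epithelial grainyhead factor, was at the edge of detection, with 2 and 4 reads in the knockout against 10, 15 and 5 in the control (−0.82, adjusted p = 0.0598). With a pseudocount of 0.1 CPM it was called lower (adjusted p = 0.043), but like Dbh it was listed through its control level. In all, 0 of these 3 rose (0 at an unadjusted p below 0.05 by limma) and 1 fell, beside 26.2% of all genes called in either direction.

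Of 20 listed genes of the naive embryonic stem cell network of Tfcp2l1, 11 others had values, of which 1 rose, 1 fell and 9 were not called, beside 26.2% of all genes called in either direction, with a median of −0.10. The riser was Il6st, the gp130 receptor subunit (0.99, adjusted p = 8.77e-05; 67.3 ± 0.496 CPM in the knockout and 33.6 ± 2.15 CPM in the control), and the gene that fell was Lifr, which pairs with gp130 in the receptor for leukemia inhibitory factor (−0.66, adjusted p = 0.00491). The call of Lifr was lost with knockout library b alone (adjusted p = 0.0846). Esrrb, a nuclear receptor of both stem cells and heart, had 8.61 ± 0.0845 CPM in the knockout and 9.40 ± 0.998 CPM in the control, and Klf4 had 50.9 ± 2.32 CPM in the knockout against 42.5 ± 8.13 CPM in the control. Neither was called.

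**Figure D4:**
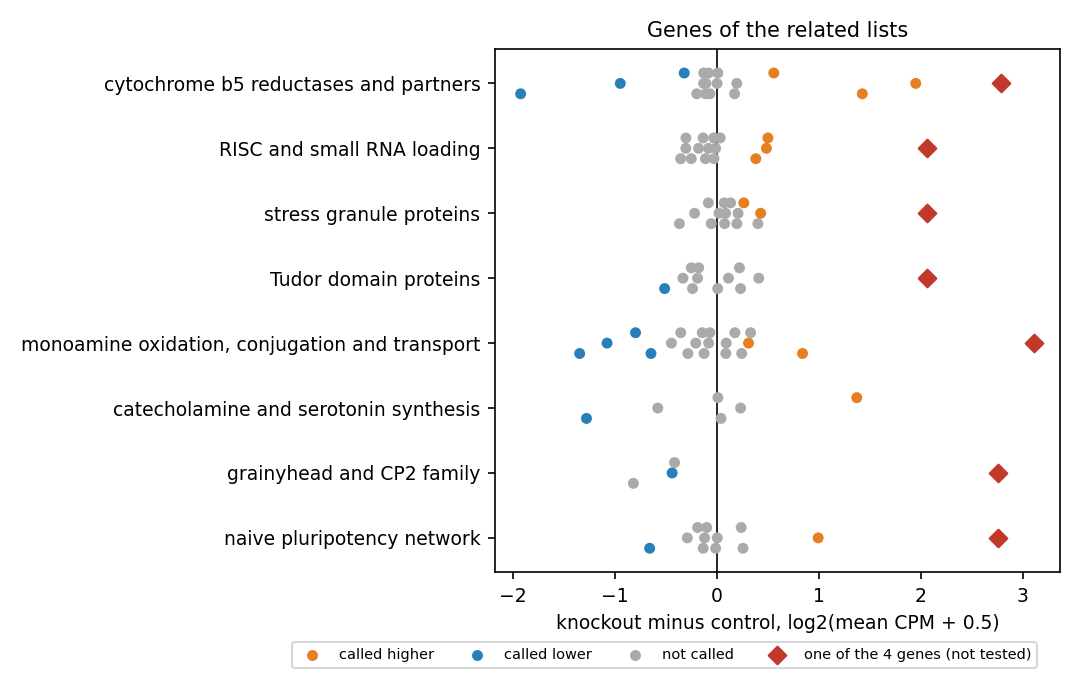
Difference of log2(mean CPM + 0.5), knockout minus control (horizontal axis), for each measured gene of 8 related lists (rows), coloured by limma call, with Cyb5r1, Snd1, Maoa and Tfcp2l1 as red diamonds in each list that holds them. List medians lay between −0.44 for the 3 grainyhead and CP2 relatives and 0.08 for the stress granule genes. The diamonds stand at 2.06 to 3.11, and their distance from the medians follows from their choice by ratio.

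The direct neighbours of the 4 genes on their chromosomes, in RefSeq order, were not called higher, with the exception of Maob. The call of Maob was lost without a trend (adjusted p = 0.0659). Among all genes 13.3% were called higher and 12.9% lower, so the calls of these few neighbours are description only. Beside Cyb5r1, Tmem183a had 11.04 CPM in the knockout and 8.42 CPM in the control (adjusted p = 0.0657) and the adiponectin receptor gene Adipor1 had 151.6 CPM in the knockout against 141.3 CPM in the control (adjusted p = 0.311). Beside Snd1, Arf5, a small GTPase of vesicle traffic, fell by 0.34 (adjusted p = 0.00526) and Rbm28 had 11.99 CPM in the knockout against 15.4 CPM in the control (adjusted p = 0.0904). Beside Tfcp2l1, Clasp1, a microtubule-binding protein, fell by 0.57 (adjusted p = 2.43e-04), with 150.7 CPM in the knockout and 224.2 CPM in the control, and Gli2 was not called at 0.509 CPM in the knockout against 0.905 CPM in the control. Lrrc4 overlaps Snd1 in the annotation and had no value in the table, and how reads in the overlap were assigned was not examined.

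Immt itself had 17.9 ± 2.72 CPM in the knockout and 254.2 ± 7.76 CPM in the control, 7.04% of the control mean (adjusted p = 3.25e-07), although tags primed at the transcript's 3′ end do not measure the deleted exon. Cardiomyocyte markers were read at a summed 28847 CPM in the knockout and 33984 CPM in the control, with 0 of 8 called higher by limma (1 at an unadjusted p below 0.05) and 5 called lower. Among all genes 13.3% were called higher and 12.9% lower. Of 39 measured markers of other cells, 0 were called higher by limma (0 at an unadjusted p below 0.05), and those called lower were 1 of 7 for fibroblasts, 1 of 6 for macrophages and Dbh among 3 measured for neurons. Tfcp2l1 is an epithelial gene in kidney, and of 8 epithelial or mesothelial markers Epcam, Krt8, Krt19, Cdh1 and Msln had no value, while the other 3 summed to 5.13 CPM in the knockout and 4.74 CPM in the control. Erythroid genes summed to 3378 CPM in the knockout and 5948 CPM in the control with 0 of 5 called by limma (0 at an unadjusted p below 0.05). The part of these shifts in the levels of the 4 genes was not tested.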

How the data were processed

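RNA of whole mouse hearts, 2 Immtfl/fl-Myh6-MCM (knockout) and 3 Immt+/+-Myh6-Cre (control), was sequenced by the authors as 3′ tag libraries with unique molecular identifiers. Tools listed in the submitters' processing notes, without their order, are edgeR 4.0.16, featureCounts, Subread 2.1.1, SAMtools 1.22.1 and STAR 2.7.11, and the genome build is GRCm39. The deposited mean per group is a signal in CPM on normalized library sizes, and the deposited SD is that of the same CPM over a group's libraries. Groups were named from the second sheet of the deposited workbook. Deposited columns of the authors' own comparison (log2 fold change, mean log2 CPM, F, p-value, adjusted p-value and its −log10) were not used. The filter on low genes is not stated in the sources used here.

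Reads per library were worked back from the mean and SD. Genes read in 1 library gave the CPM of 1 read, explaining 17 of 18 such genes in the knockout in whole reads (18 with fractions of 0.5) and 7 of 7 in the control. In the knockout 84.4% of 14444 genes under 2000 reads then had 1 order giving whole or 0.5-fractional reads within 0.02 reads, and 1762 had none. Of 3750 control genes between 0.4 and 2.5 CPM, 70.7% had a whole-read solution. This recovery was chosen after seeing the data. Because reads were not recovered for all genes and libraries, no count model was run. A further 0 columns held values of single samples.

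A limma 3.58.1 moderated test (R 4.3.3) was built from means and SDs on log2(mean + 0.5 CPM), with a mean-variance trend (prior degrees of freedom 5.57) and Benjamini-Hochberg adjustment over 15116 genes, two-sided, called below 0.05. It was tested on simulated counts with the same dispersion for every gene and no filter on level. The outcome of that simulation is not reported here, and it does not show how the test performs on these data. The log2 scale with a pseudocount understates changes of low genes. Alternatives were pseudocounts of 0.1 and 1 CPM, a mean of at least 5 CPM, library totals (sums of the listed group means), no trend, and leaving out libraries.

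The 4 genes and the gene lists were chosen with earlier results of these data known. Named besides these were Immt, measured paralogs, chromosome neighbours, the 3 nearest genes by group means, genes on either side of the threshold, and up to 4 called genes per list with the smallest p. Ago2, Cyb5a, Cyb5b, G3bp1, Aldh2, Esrrb, Klf4, Trp53bp1, Xist and the Y-linked genes were named after their values were seen. Promoter sequences are from RefSeq (GRCm38.p6, 4 of 4 genes matched by symbol), and gene coordinates of the authors' build were not used. Some genes that these rules pick are not reported here by name.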

Additional observations from a re-analysis of the deposited data

How the results depend on the processing

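No paired analysis was possible because the values of single libraries cannot be assigned to the replicate numbers in the labels. On the log2(mean + 0.5 CPM) scale the 4 genes kept their direction under every alternative run. Their choice by ratio and small SDs fixed this outcome, so it is no support for a difference. Library totals gave 2.92 for Cyb5r1 (2.79 as reported), 2.19 for Snd1 (2.06) and 3.23 for Maoa (3.11). A pseudocount of 0.1 CPM gave 3.31 for Maoa and 3.41 for Tfcp2l1, and 1 CPM gave 2.91 and 2.28, against 3.11 for Maoa and 2.76 for Tfcp2l1 as reported; the pseudocount acts on low control levels by construction. Leaving out either knockout library, or taking the lowest or highest mean of 2 control libraries that the SD allows, gave 2.71 to 2.87 for Cyb5r1, 2.03 to 2.09 for Snd1, 3.06 to 3.17 for Maoa and 2.63 to 2.90 for Tfcp2l1.

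Genes called higher numbered 2014, and 3067 on library totals; genes called lower numbered 1944, and 1277 at a mean of at least 5 CPM, where fewer genes were tested. With the knockout library nearer to the control for each gene, 714 were higher and 605 lower, a choice that lowers differences by construction. Genes at 4 times or more numbered 111, and 41 at a mean of at least 5 CPM. On library totals the lists had 5 higher b5 genes (3 as reported), 5 stress granule genes (2), 2 Tudor genes (0), 4 monoamine genes (2) and 2 catecholamine synthesis genes (1), and 0 lower grainyhead and CP2 genes (1). At a mean of at least 5 CPM, 1 Tudor gene was higher, Trp53bp1, and 0 catecholamine synthesis genes were higher or lower, since Ddc and Dbh were not tested. Without a trend 1 stress granule gene and 1 monoamine gene were higher (2 each as reported). With a pseudocount of 0.1 CPM, 2 grainyhead and CP2 genes were lower. With the nearer knockout library, 0 RISC genes (3 as reported), 0 stress granule genes (2) and 1 monoamine gene (2) were higher, and 0 Tudor genes (1), 1 monoamine gene (4), 0 grainyhead and CP2 genes (1) and 0 naive pluripotency genes (1) were lower. For these calls the cause of the change was not tested.

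The comparison rests on 2 knockout libraries, and 20 control reads stand behind the ratio of Tfcp2l1.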
